A study of Caenorhabditis elegans with 21 samples.

Results

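Adult C. elegans hermaphrodites that had lived through starvation as first-stage larvae (L1) were separated by eye into egg-carrying (fertile) and egg-free (sterile) animals, and the RNA of the sterile animals was compared with that of fertile animals from the same plates. The comparison uses 6 of the 21 libraries of the series, 3 of sterile and 3 of fertile F4 L1starved animals. It covers 13413 of the 17723 genes in the table of adults, namely those whose normalized count averaged 10 or more over the 9 adult libraries. All animals were wild type (strain N2), on day 1 of adulthood and currently fed, with about 100 whole worms and their total RNA per library. The F4 animals of both groups had been starved as L1, as had their ancestors. The remaining 3 adult libraries came from control animals that had always been fed and carried eggs, and they entered the fit for its estimate of the spread. Eggs defined the groups, so RNA of the embryos inside fertile mothers belongs to the definition of the groups. Animals with only a few eggs were picked for neither group. The question was how adults without eggs on day 1 after early life starvation differ from those that carried eggs.

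The germ line of a hermaphrodite first makes sperm, late in larval life, and then switches for good to oocytes. Oocytes take up yolk made by the intestine and are filled with RNA for the early embryo, and sperm form with a largely separate set of autosomal genes. The X chromosome carries few genes that are active in the germ line and hardly any of those for making sperm. In whole worms, fewer cells of a type and less RNA per cell cannot be told apart. Every normalized count below is a relative level, set by the scaling of its library, and not an amount per animal.

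The libraries held 14082044 to 18666332 reads in the fertile, 12187063 to 22942483 in the sterile and 18356657 to 21455916 in the control group. The 10 most abundant genes took 42.5 to 45.5% of the normalized counts in sterile, 27 to 29.3% in fertile and 19.7 to 21% in control libraries. Among them was rrn-3.1, a ribosomal RNA gene (chosen after its values were seen), with 3223721, 4086609 and 4643249 normalized counts in the sterile and 1669474, 2719771 and 2623026 in the fertile libraries. Whether its difference came from the animals or from library preparation was not tested. The oocyte markers oma-1, oma-2, rme-2, puf-5, cpg-1, cpg-2 and chs-1 and the embryo markers end-1, pes-10, tbx-37 and tbx-38 were lower in every sterile library than in any fertile one, and the sperm markers spe-9, spe-15, gsp-3, gsp-4 and the tested major sperm proteins were higher. The sperm marker spe-44 overlapped between the groups, and the embryo markers end-3 and med-1 were too low to be tested. The longer sperm, eggshell and embryo lists described later also held members that went the other way. Fertile replicate 1 and sterile replicate 1 stood apart from the other libraries of their groups, with median absolute log2 differences per gene of 0.29 and 0.31 in the fertile group (0.20 between the others) and of 0.36 and 0.34 in the sterile group (0.23 between the others). A fit without both, added after seeing the data, called 5081 genes higher and 5206 lower.

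Most genes differed between the groups, 10519 in all (78.4%). Of 13413 genes, 5206 (38.8%) were higher and 5313 (39.6%) lower in sterile animals in limma's moderated test (Benjamini-Hochberg adjusted p under 0.05 over all genes tested), and for 5215 (38.9%) and 5311 (39.6%) genes the 3 sterile values all lay above or all below the 3 fertile ones. At least a 2-fold difference was found for 3676 higher (27.4%) and 3358 lower genes (25%). These shares are the background for every count of a gene group below. With each library scaled to its own sum, which moves the median log2 difference of all genes from 0.10 to -0.21, the split became 3907 higher and 6008 lower.

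The differences fell into 3 clusters of sizes. On the autosomes, 4091 of 11568 genes (35.4%) had log2 differences between -2 and -0.5, 3364 (29.1%) lay between 0.5 and 2, and a separate cluster of 1022 genes (8.84%) lay between 3.5 and 7, with only 317 (2.74%) between 2 and 3.5. Of the 1842 X-linked genes, 920 (49.95%) lay between 0.5 and 2, 300 (16.3%) between -2 and -0.5, and 5 (0.271%) in the topmost cluster. At the lower end, between -6 and -2, lay 135 X-linked (7.3%) and 690 autosomal genes (6.0%). X-linked genes were called higher in 874 and lower in 419 cases, with a median log2 difference of 0.56. For the autosomal genes the calls were 4331 and 4893, with a median of -0.03.

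**Figure D1:**
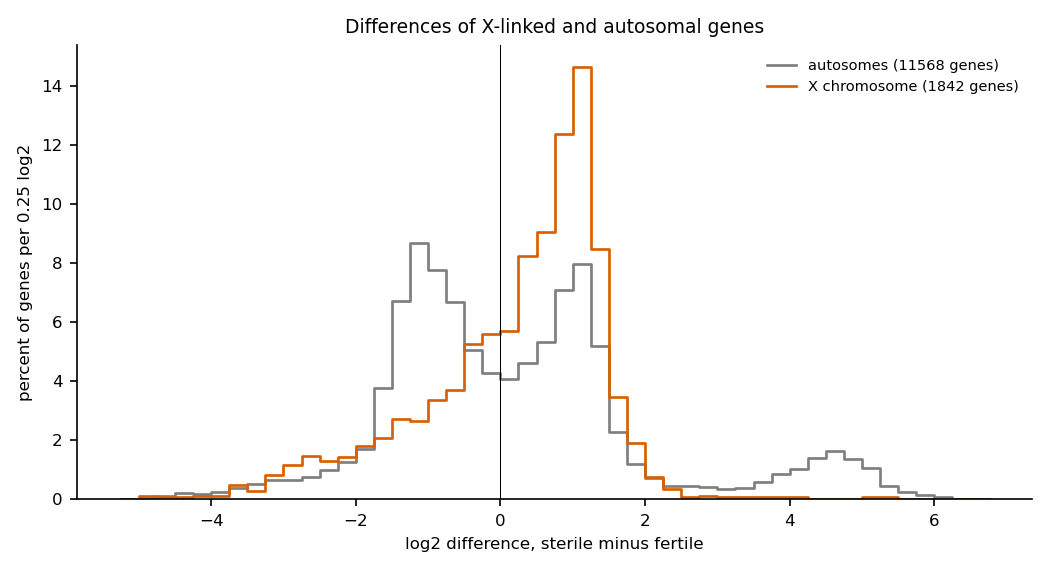
Percent of genes in each step of 0.25 log2 units of the difference between sterile and fertile animals, for 11568 autosomal (grey) and 1842 X-linked genes (orange). Autosomal genes form 3 humps, of which the uppermost, between 3.5 and 7, holds 5 X-linked genes.

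The topmost cluster held most of the known sperm genes. At least 16-fold higher levels in sterile animals were found for 859 genes, of which 3 (0.349%) were X-linked, compared with 13.7% of all genes tested. For 544 of the 859 genes the fertile mean was under 10, so such genes could pass the filter through the sterile libraries alone. The count of 859 thus depends in part on the filter. Among the 859 genes, 90 belonged to a gene group examined here, 62 of them to 3 sperm groups with 78 tested members. Members outside the sperm groups included acs-6, acs-15, acdh-8, elo-7, clec-123, fbxa-202, cdc-25.4 and his-70, which are described below. Only a sequence name was carried by 645 of the 859 genes. In sum, the 859 genes made up 1.61, 1.36 and 1.43% of the normalized counts in the sterile libraries, and 0.145, 0.0517 and 0.0386% in the fertile ones. Fertile replicate 1 was the highest fertile library for 749 of these genes (87.2%, compared with 38.2% of all genes tested). Downward differences were smaller in size: 821 genes were at least 4-fold, 306 at least 8-fold and 67 at least 16-fold lower.

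Major sperm proteins, which build the cytoskeleton of the crawling nematode sperm and signal to the oocyte, were higher in sterile animals for all 29 tested members of the family (38.8% of all genes were), with a median log2 difference of 4.69 (0.10 over all genes). Their copies are nearly identical, so that the split of reads between single copies is uncertain. Summed over the family, sterile libraries held 18304, 13983 and 15031 normalized counts and fertile libraries 1326, 458 and 307, with 101 to 404 in controls. Every sterile library thus lay more than 10 times above the highest fertile library, and fertile replicate 1 stood above the other fertile libraries. All 17 tested members of the ssp, sss and nspd families of small sperm proteins were higher as well, with a median of 4.50.

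Genes for sperm development and fertilization moved with them: 26 of 32 tested were higher, 5 lower, and the median log2 difference was 4.36. The myosin gene spe-15, which works in the division of sperm cells from their residual body, had 2136, 2066 and 2474 normalized counts in sterile and 242, 204 and 186 in fertile animals (log2 difference 3.4, SE 0.16, adjusted p = 1.6e-06). For spe-41, a calcium channel of sperm needed at fertilization, the values were 658, 554 and 812 against 157, 72.0 and 111 (2.61, SE 0.27, adjusted p = 9.4e-06). The groups stood apart for both genes, with all fertile libraries far below the lowest sterile one. Sperm surface gene spe-9 was counted at 42.5, 66.7 and 76.0 in sterile libraries against 4.20, 5.26 and 0 in fertile ones (4.25, SE 0.68, adjusted p = 0.00014).

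The sperm-specific phosphatases gsp-3 and gsp-4 differed by 4.70 and 4.76 on the log2 scale. The ferlin fer-1, which fuses the membranous organelles of sperm, had 1072, 1079 and 1106 normalized counts in sterile and 122, 40.4 and 16 in fertile animals (4.62, SE 0.52, chosen after its values were seen, as was gsp-3). In fer-1 and in most sperm genes the highest fertile value was that of replicate 1, and without this library the difference of fer-1 was 5.35. The paternal gene spe-11, whose product enters the egg with the sperm and helps to form the eggshell, rose likewise from 36.9, 32.5 and 5.73 to 639, 614 and 699 (4.99, SE 0.67, chosen after its values were seen). Members of the list that fell were spe-39, spe-48, zipt-7.1, wee-1.3 and cpb-1, with log2 differences between -0.38 and -1.31.

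Argonautes of sperm development shared this rise. The genes alg-3 and alg-4, which act with small RNAs in developing sperm, had 1334, 1148 and 1360 and 1465, 1376 and 1776 normalized counts in sterile libraries, against 99.9, 39.5 and 20.6 and 82.2, 42.1 and 34.4 in fertile ones. The log2 differences were 4.84 (SE 0.54) for alg-3 and 4.93 (SE 0.38) for alg-4, and 5.2 (SE 0.63) for the Argonaute wago-10 (alg-3 and wago-10 chosen after their values were seen). Of the other 17 Argonautes, sago-1 and sago-2 rose by 0.77 and 0.48, and the remaining 15 fell, among them ergo-1 (-1.94), nrde-3 (-1.88), the heritable silencing factor hrde-1 (-1.70) and csr-1, which licenses germ line genes (-0.65). Of 27 factors of small RNA biogenesis, 26 were lower and none higher, with a median of -1.07.

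**Figure D2:**
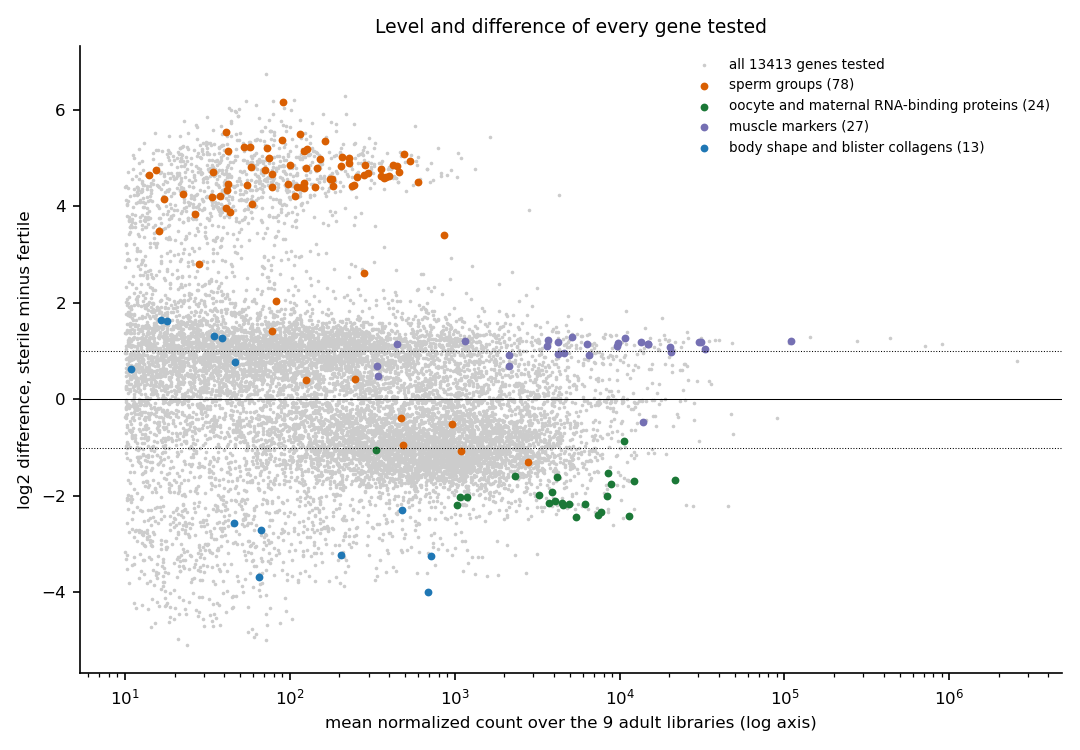
Log2 difference (sterile minus fertile, vertical axis) against the mean normalized count over the 9 adult libraries (horizontal log axis) for the 13413 genes tested, with dotted lines at a 2-fold difference. Most of the 78 sperm genes (orange) lie in the uppermost cloud, the 24 oocyte RNA-binding genes (green) lie below 0, the 27 muscle genes (violet) lie close to 1 except for 1 below 0, and 13 body shape collagens (blue) spread over both sides.

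Genes that decide between sperm and oocyte were mostly lower. The list of sex determination and of the sperm-to-oocyte switch had 1 higher, 22 lower and 3 uncalled members of 26, with a median of -1.08. The only riser was fog-3, a protein that specifies sperm, with 101, 159 and 134 normalized counts in sterile, 103, 55.3 and 49.3 in fertile and 1.87, 5.30 and 4.32 in control animals (0.97, SE 0.39, adjusted p = 0.038). The sterile and fertile ranges overlapped through fertile replicate 1, and both lay far above the controls. This call was lost without fertile replicate 2 or 3 or sterile replicate 2 or 3 (adjusted p = 0.112, 0.126, 0.117 and 0.083).

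Its partner fog-1 had 501, 576 and 673 in sterile and 833, 627 and 680 in fertile animals (-0.29, SE 0.16, adjusted p = 0.11), and was called lower without sterile replicate 3 (-0.40, adjusted p = 0.0496). The values of spe-44, which turns on sperm genes, were 218, 325 and 309 against 170, 226 and 242 (0.41, SE 0.19, adjusted p = 0.065). It passed in edgeR's test (0.47, adjusted p = 0.029), and without fertile replicate 3 (0.51, adjusted p = 0.048) or sterile replicate 1 (0.59, adjusted p = 0.0073). Regulators upstream of this choice fell: gld-1, which blocks translation in the meiotic germ line, from 8567, 10583 and 10025 to 1898, 3795 and 3308 (-1.75, SE 0.21), fog-2 by 1.64, tra-2 by 1.14 and the masculinizing gene fem-3 by 2.19 on the log2 scale. Sterile replicate 1 was the lowest sterile library for 23 of these 26 genes.

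Oocyte RNA was lower in sterile animals throughout. All 24 RNA-binding proteins that hold maternal RNA in the oocyte fell (39.6% of all genes did), with a median of -2.03. The Pumilio protein puf-5, a translational regulator of late oocytes, had 1280, 3198 and 3249 normalized counts in sterile, 10908, 13270 and 13916 in fertile and 17176 to 21220 in control animals (-2.41, SE 0.29, adjusted p = 1.8e-05). For oma-2, needed for oocyte maturation, the values were 570, 1456 and 1381 against 5538, 5836 and 5606 (-2.43, SE 0.27). The yolk receptor of the oocyte, rme-2, stood at 1638, 4104 and 3770 against 11602, 15308 and 16385 (-2.28, SE 0.28, adjusted p = 2.2e-05). In all 3 genes sterile replicate 1 was the lowest library by more than 2-fold, and no sterile library reached the fertile range.

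Eggshell and egg activation genes followed, with 17 lower and 3 higher of 20. The chitin-binding cbd-1 (-2.2), chitin synthase chs-1 (-2.27), the proteoglycans cpg-1 (-2.22) and cpg-2 (-2.2) and the egg surface genes egg-1 (-2.28) and egg-2 (-2.31) lay within a narrow range. The exceptions besides spe-11 were perm-2 and perm-4, components of the permeability barrier, of which perm-2 had 19077, 14732 and 14326 in sterile and 15307, 8500 and 7697 in fertile libraries (0.67, SE 0.22, adjusted p = 0.015). Its ranges overlapped through fertile replicate 1, and the call was lost without fertile replicate 2 (adjusted p = 0.067) or 3 (adjusted p = 0.075).

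Early embryonic genes, switched on in the fertilized egg, were lower for 29 of 36 members and higher for 5, with the lowest median of all groups (-2.94). The early transcript pes-10 was listed at 1.33, 14.3 and 38.9 in sterile and 119.2, 116.7 and 175.3 in fertile libraries (-3.59, SE 0.74, adjusted p = 0.00086). Its 3 sterile values differed by more than 10-fold among themselves, and its difference was -2.46 without sterile replicate 1 and -4.51 without sterile replicate 3. The endoderm gene end-1 had 0, 3.17 and 0 against 22.7, 21.9 and 18.3, and tbx-38, a mesoderm regulator, was at 0 in all 3 sterile libraries and at 21.8, 5.26 and 24.1 in the fertile ones. For both genes the groups did not overlap. The uncharacterized early zygotic genes sdz-21 (-4.67), sdz-28 (-3.27) and sdz-30 (-3.48) also fell, whereas sdz-24 (2.36), sdz-6 (2.03), sdz-27 (1.53), sdz-8 (1.35) and the epidermal regulator elt-3 (0.69) rose (these 5 chosen after their values were seen).

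**Figure D3:**
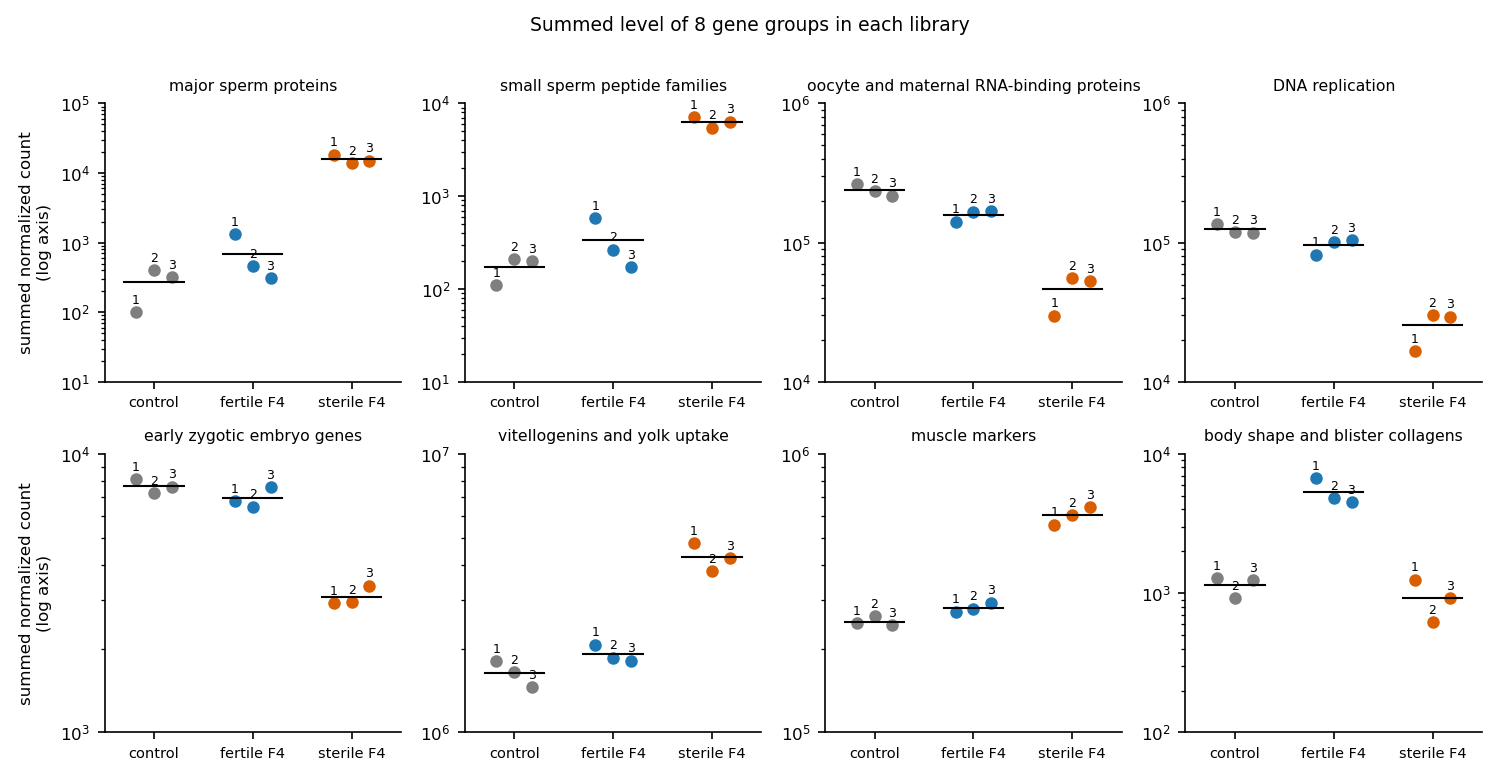
Summed normalized counts (log axes, each panel with its own scale) of 8 gene groups in the 3 control (grey), 3 fertile (blue) and 3 sterile libraries (orange), with the replicate number at each point and a bar at the mean. Sperm groups, vitellogenins and muscle genes are highest in sterile libraries, oocyte, replication and early embryo genes are lowest there, and the body shape collagens stand out in the fertile libraries.

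Genes listed for germ cell division and meiosis showed the same direction at a smaller size in these whole worms. All 17 genes of the germ line stem cell pool and of meiotic entry were lower (median -1.39), as were all 37 genes of the synaptonemal complex and meiotic axis (-1.21) and 15 of 16 P granule genes (-1.38). The Notch receptor glp-1, which keeps germ line stem cells dividing, had 1049, 1878 and 1765 normalized counts in sterile and 4509, 5852 and 5722 in fertile animals (-1.81, SE 0.19, adjusted p = 1.0e-05). Its ligand lag-2, made by the somatic niche cell, had 5.31, 14.3 and 7.95 against 17.6, 26.3 and 29.8 (-1.39, SE 0.43, adjusted p = 0.011). Neither gene overlapped between the groups.

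The size of the fall varied among germ line genes. The P granule helicase glh-1 had 2762, 4014 and 3739 against 3854, 5305 and 5332 (-0.46, SE 0.16, adjusted p = 0.018), and the synaptonemal protein syp-1 had 456, 644 and 708 against 682, 902 and 989 (-0.52, SE 0.18, adjusted p = 0.019). The ranges of both overlapped, and both calls were lost without sterile replicate 1 (adjusted p = 0.053 in each case) and without fertile replicate 2 or 3 (adjusted p = 0.063 to 0.082). By contrast, meg-1, meg-3 and meg-4, P granule proteins of the embryo, fell by 2.48, 2.39 and 2.6, and nos-2, a maternal regulator of the embryonic germ line, fell by 2.37.

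Genes of dividing cells were lower almost without exception. All 31 DNA replication genes (median -1.97), all 47 spindle, kinetochore and nuclear pore genes (-1.38) and 27 of 28 cyclins and cell cycle kinases (-1.57) fell. The sliding clamp pcn-1 had 650, 1305 and 1387 normalized counts in sterile and 4799, 4673 and 5250 in fertile libraries (-2.21, SE 0.23, adjusted p = 9.7e-06), and the replicative helicase subunit mcm-2 had 893, 1700 and 1633 against 5123, 6583 and 6754 (-2.17, SE 0.21). Within the phosphatases that activate cyclin-dependent kinases, cdc-25.2 fell from 825, 882 and 889 to 83.7, 129 and 155 (-2.86, SE 0.19), whereas cdc-25.4 rose from 8.39, 2.63 and 0 to 59.8, 76.2 and 47.7 (4.24, SE 0.86, chosen after its values were seen). The groups stood apart in each of these 4 genes.

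Histone genes were lower for 37 of 43 members (median -2.18), although many of their copies cannot be separated by short reads. The linker histone his-24 had 141, 152 and 397 against 2209, 1996 and 2272 (-3.39, SE 0.30) and hil-3 had 61.1, 61.9 and 107 against 663, 624 and 658 (-3.11, SE 0.20). The variant his-70 ran the other way, with 98.3, 79.4 and 88.3 against 6.71, 2.63 and 1.15 (4.51, SE 0.67, chosen after its values were seen, as was his-24). Of 24 genes of apoptosis and engulfment, 19 were lower, and ced-8, a scramblase that exposes phosphatidylserine on dying cells, was among the 10 lowest genes with 3.98, 4.76 and 8.83 against 152, 169 and 136 (-4.54, SE 0.28, adjusted p = 2.9e-06). The death trigger egl-1 had 6.64, 7.94 and 10.6 against 30.2, 26.3 and 9.17 (-1.15, SE 0.48, adjusted p = 0.045), with overlapping ranges, and did not pass with the replicate number as a block (adjusted p = 0.052). It also failed without fertile replicate 1 (-0.85), fertile replicate 2 (-0.95), sterile replicate 1 (-1.01) or sterile replicate 2 (-1.13).

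Of 17 genes listed for the gonad, uterus and vulva, 7 were higher (41.2%) and 6 lower (35.3%), close to the shares of 38.8% and 39.6% among all genes. Sheath cell genes ceh-18 (0.99), inx-8 (0.47) and inx-9 (0.61) rose, as did gon-1, a protease that shapes the gonad (1.15), and mig-6 (0.91). The innexins inx-14 (-1.88) and inx-22 (-1.75), which form the germ line side of the gap junctions with the sheath, fell. Each germ line innexin stood below its fertile range in all 3 sterile libraries, for inx-22 at 232, 424 and 473 against 1038, 1308 and 1316.

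Yolk genes were higher. All 6 vitellogenins rose in sterile animals, with log2 differences from 1.11 to 1.29, next to a median of 1.14 for muscle genes. The yolk protein gene vit-6 had 1710346, 1292445 and 1475025 normalized counts in sterile, 751324, 628939 and 648999 in fertile and 510025 to 594918 in control libraries (1.14, SE 0.19, adjusted p = 0.00018). For vit-2 the counts were 1338804, 994653 and 1175770 against 599186, 498061 and 517076 (1.11, SE 0.19). Sterile replicate 1 was the highest library for both, and no fertile library reached a sterile one. Together with 4 genes of yolk uptake and regulation, the vitellogenins made up 25.9, 19.6 and 20.9% of the normalized counts in sterile and 14.3, 11.3 and 11.2% in fertile libraries.

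Most muscle, neuron and intestine genes were higher. Muscle genes were higher for 26 of 27 members, with a median of 1.14 and quartiles of 0.95 and 1.19. The heavy chain unc-54 had 157794, 189030 and 205583 normalized counts in sterile and 70576, 81416 and 87503 in fertile animals (1.2, SE 0.14, adjusted p = 1.7e-05), and the heavy chain myo-3 had 10672, 9595 and 9987 against 5583, 5087 and 5235 (0.93, SE 0.12). The exception was the actin act-2 (-0.47, chosen after its values were seen). Neuron markers were higher for 14 of 19 (median 0.94), neuropeptides for 53 of 77 with none lower (1.05), and intestine markers for 10 of 16 with none lower (0.66).

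Single markers departed from their tissue. The synaptic vesicle gene snb-1 had 778, 733 and 776 in sterile and 780, 744 and 752 in fertile libraries (0.01, SE 0.11, adjusted p = 0.95), and unc-119 fell by 0.82. The intestinal regulator elt-2 had 154, 96.8 and 124 against 113, 107 and 123 (0.11, SE 0.21, adjusted p = 0.64). Both snb-1 and elt-2 overlapped between the groups and changed sign when libraries were scaled to their sums. On that scale snb-1 was called lower (-0.30, limma adjusted p = 0.019) and elt-2 was not called (-0.20, adjusted p = 0.44). The gut esterase ges-1 had 1562, 1179 and 1017 against 487, 386 and 281 (1.71, SE 0.21), and the fatty acid binding polyprotein npa-1 had 36991, 34532 and 33170 against 11276, 10963 and 10482 (1.68, SE 0.11, adjusted p = 2.9e-06), both without overlap.

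Insulin-like signaling, in which the receptor DAF-2 acts through PI3 kinase and AKT to hold the transcription factor DAF-16 out of the nucleus, had 9 lower and 4 higher of 15 tested genes. That 13 of 15 were called is close to the 78.4% called among all genes. The receptor daf-2 had 2812, 2589 and 2668 normalized counts in sterile and 3940, 4726 and 4616 in fertile animals (-0.71, SE 0.10, adjusted p = 6.8e-05), the PI3 kinase age-1 fell by 1.37 and the opposing phosphatase daf-18 by 1.85. The kinases parted, with akt-1 at 1621, 1733 and 1534 against 2426, 2604 and 2520 (-0.63, SE 0.10), and akt-2 at 503, 373 and 416 against 193, 129 and 162 (1.42, SE 0.21). No sterile value lay within the fertile range in daf-2, akt-1 or akt-2.

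The transcription factor gene daf-16 itself had 2047, 2249 and 2565 against 2470, 2295 and 2263 (-0.04, SE 0.11, adjusted p = 0.75), with overlapping ranges. Its sign turned in edgeR's fit (0.01), in DESeq2's fit (0.02) and without sterile replicate 1 (0.04), and it was called lower with libraries scaled to their sums (-0.35, adjusted p = 0.0071). Insulin-like peptides, the ligands of the pathway, were higher for 9 of 15 tested and lower for ins-34 alone. The peptide ins-37 had 243, 182 and 192 in sterile and 19.3, 8.77 and 14.9 in fertile libraries (3.81, SE 0.64), while ins-34 had 7.97, 6.35 and 6.18 against 60.4, 31.6 and 28.6 (-2.32, SE 0.35), both without overlap.

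Known targets that DAF-16 activates were higher for 16 of 21, with 13 past 2-fold and a median of 1.32, next to 1.14 for muscle genes and 1.05 for neuropeptides. The iron storage gene ftn-1 had 494, 165 and 94.5 normalized counts in sterile and 32.7, 7.90 and 25.21 in fertile libraries (3.32, SE 0.68, adjusted p = 0.00081). For the metallothionein mtl-1 the values were 417, 61.9 and 53.9 against 47, 27.2 and 4.58 (2.53, SE 0.84, adjusted p = 0.016), and for the superoxide dismutase sod-3 the means were 161.8 ± 67.1 against 50.05 ± 22.5 (SD, n = 3, without overlap, 1.72, SE 0.39). Sterile replicate 1 was the highest sterile library for 15 of the 21 genes and far above the rest for ftn-1 and mtl-1. Without it the difference was 2.66 for ftn-1 and 1.58 for mtl-1, which no longer passed (adjusted p = 0.058), nor did mtl-1 without fertile replicate 3 (1.62, adjusted p = 0.072).

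Targets with less spread were gpd-2, a glycolytic enzyme, at 5184, 5462 and 6194 against 1790, 1946 and 2058 (1.54, SE 0.11), and icl-1, the key enzyme of the glyoxylate cycle, at 21707, 21224 and 18735 against 9931, 8413 and 9867 (1.13, SE 0.12). The small heat shock gene sip-1, which is active in oocytes and embryos, was the one target to fall, with 4945, 6036 and 6621 against 13442, 11399 and 12317 (-1.08, SE 0.12). Neither group overlapped the other in these 3 genes. Of 4 tested genes repressed downstream of DAF-16, 3 were higher as well and none lower (median 0.82). A longer list of 969 DAF-16 dependent genes, which the study drew from these same libraries and which is therefore no independent evidence of direction, had 874 higher and 86 lower members with a median of 1.17.

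Fat synthesis genes were higher almost throughout. Of 20 genes of fatty acid synthesis, desaturation and elongation, 19 were higher (median 0.96, next to 1.14 for muscle genes). The palmitate desaturase fat-5 had 1512, 1219 and 1338 normalized counts in sterile and 410, 337 and 411 in fertile animals (1.81, SE 0.14, adjusted p = 3.2e-06), and the stearate desaturase fat-6 had 4939, 5668 and 4414 against 2233, 2199 and 2138 (1.19, SE 0.13), both without overlap. Its near relative fat-7 had 1134, 2201 and 1320 against 954, 946 and 926 (0.66, SE 0.24, adjusted p = 0.024) and did not pass without fertile replicate 2 or 3 or sterile replicate 2 (adjusted p = 0.057, 0.058 and 0.107). Beyond the typical size of somatic genes lay elo-7, an elongase family member, at 128, 73.0 and 69.8 against 3.36, 2.63 and 5.73 (4.21, SE 0.48, chosen after its values were seen).

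Lipases and beta-oxidation genes were higher for 43 of 66 and lower for 10. Within the acyl-CoA synthetases, acs-6 rose from 28.5, 23.7 and 19.5 to 505, 476 and 394 (4.21, SE 0.28), acs-22 rose by 1.45, and acs-13 fell from 6941, 8330 and 8765 to 2050, 2868 and 2842 (-1.64, SE 0.15). The groups were apart in all 3. The acyl-CoA dehydrogenase acdh-8 had 1027, 789 and 949 against 57.9, 35.1 and 32.1 (4.47, SE 0.48), and acs-15 had 185, 176 and 182 against 12.59, 1.75 and 4.58 (4.94, SE 0.53), both chosen after their values were seen. The genes acs-6, acdh-8 and acs-15 were among the 859 genes at least 16-fold higher, while the median of the 66 genes was 0.71. In the trehalose and gluconeogenesis group 13 of 17 were higher, with pck-1 up by 1.46 and the trehalose synthase tps-2 up by 1.55.

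**Figure D4:**
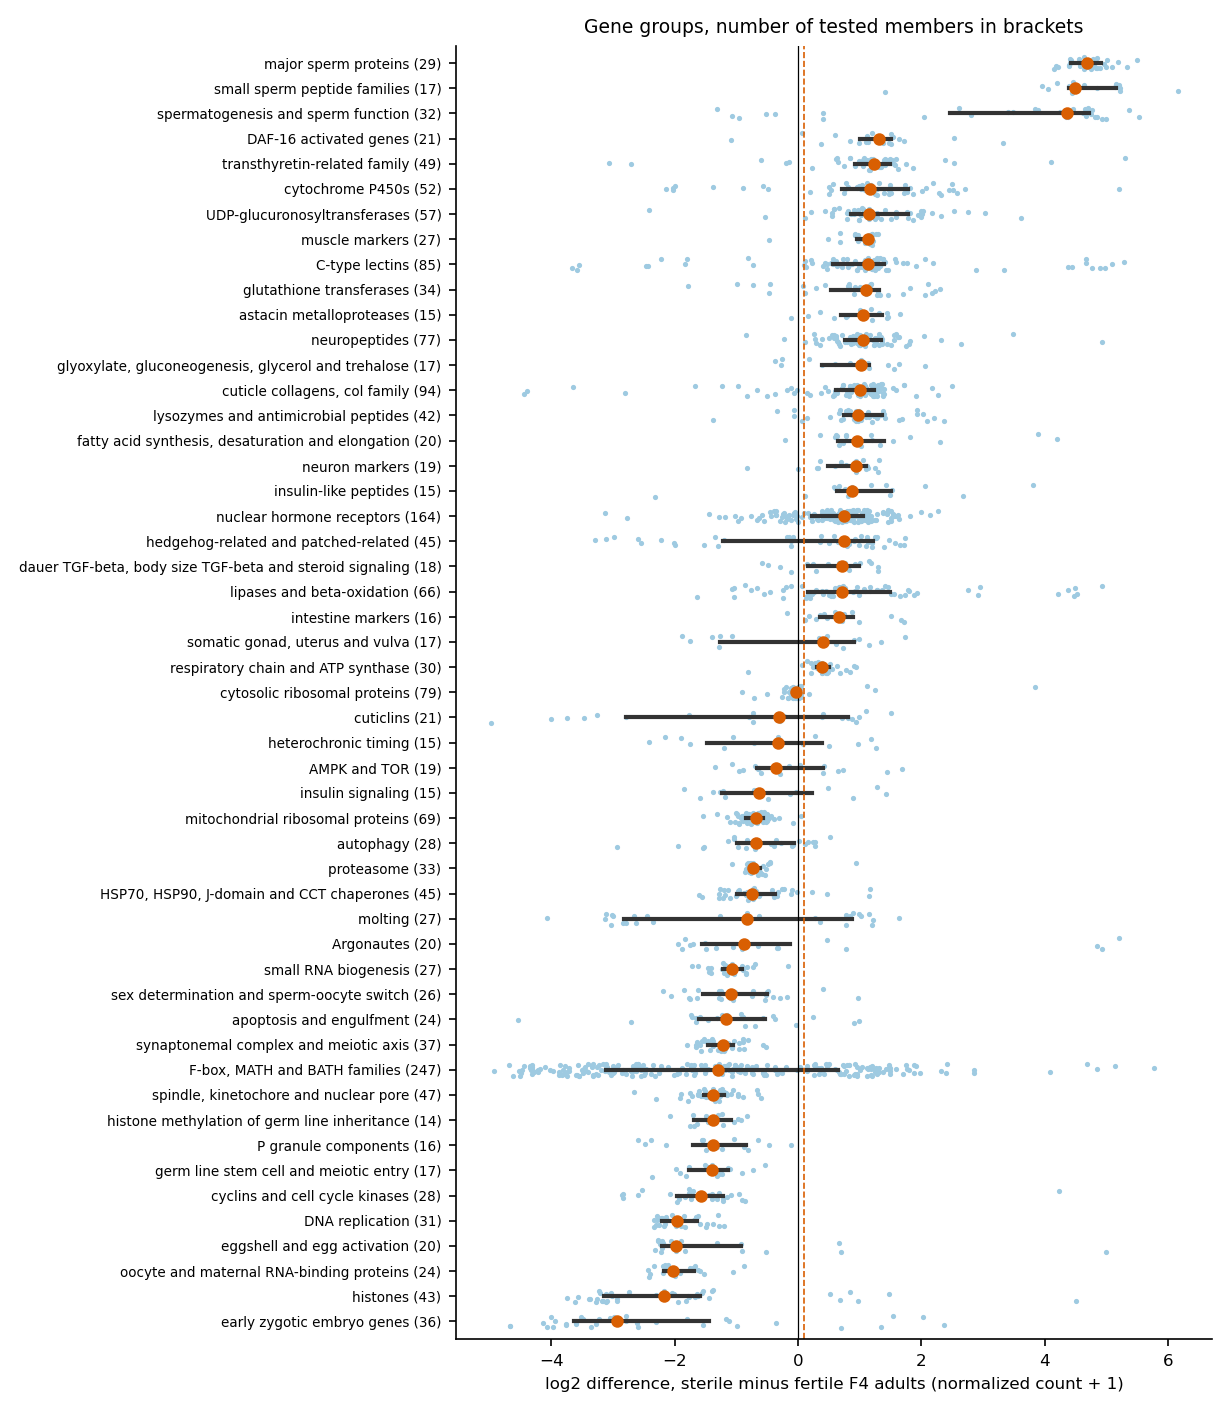
Log2 differences (sterile minus fertile) of the tested members of the gene groups with at least 14 of them, ordered by median (orange dot, with a black bar from the lower to the upper quartile and single genes as pale dots). The dashed line marks the median of all genes tested, 0.10. Medians run from -2.94 for early zygotic embryo genes to 4.69 for major sperm proteins.

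Groups of cuticle genes differed in the direction of most of their calls. Of 94 tested collagens of the col family 61 were higher and 5 lower (median 1.01), and col-19, the marker collagen of the adult cuticle, had 17414, 28081 and 26800 normalized counts in sterile and 9467, 11804 and 12106 in fertile animals (1.09, SE 0.18, adjusted p = 0.00017). The collagens named for body shape and blister mutants, which include bli-1 of the adult cuticle, instead had 7 lower and 3 higher of 13, with a median of -2.3 that vanished when low genes were kept in (0.02). Summed over this group, the fertile libraries stood above both other groups. The collagen dpy-14 had 2014, 1550 and 1409 in fertile, 146, 47.6 and 152 in sterile and 332, 216 and 303 in control animals (-3.99, SE 0.37, adjusted p = 5.1e-06). For sqt-3 the counts were 1365, 866 and 889 in fertile, 275, 149 and 212 in sterile and 181 to 198 in control libraries (-2.3, SE 0.23).

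Genes of molting and of the embryonic apical matrix had 15 lower and 10 higher of 27 and a fertile mean above the control mean in 26. The matrix protein gene noah-2 had 2123, 1800 and 1593 in fertile, 212, 148 and 367 in sterile and 432 to 458 in control animals (-3.01, SE 0.26), and the protease inhibitor mlt-11 had 2574, 1871 and 1743 in fertile against 304, 133 and 314 in sterile ones (-3.11, SE 0.29). The heterochronic regulator hbl-1 had 1492, 1084 and 968 in fertile, 373, 241 and 338 in sterile and 203 to 242 in control libraries (-1.89, SE 0.20). In the 3 genes every fertile library lay above every other adult library.

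The values of col-165 and cut-3 varied widely between replicates. The collagen col-165 had 409, 118 and 173 in fertile, 95.6, 1.59 and 2.65 in sterile and 12.1 to 28.1 in control libraries (-4.39, SE 1.07, adjusted p = 0.0027), so that replicate 1 was highest in each group. Its difference was -6.05 without sterile replicate 1, -3.44 without sterile replicate 2 and -3.69 without sterile replicate 3. For cut-3, a cuticlin, the values were 87.7, 0 and 0 in sterile against 310, 82.5 and 108 in fertile animals (-4.99, SE 1.36, adjusted p = 0.0053, chosen after its values were seen). The groups overlapped in cut-3, and its difference was -7.14 without sterile replicate 1 and -3.91 without sterile replicate 2 or without sterile replicate 3.

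Heterochronic genes, which time development, were higher for 4 and lower for 8 of 15, a share of calls close to the 78.4% of all genes. The adult-promoting lin-29 had 212, 221 and 267 in sterile against 94.0, 87.7 and 109 in fertile animals (1.26, SE 0.21), while lin-28 fell by 1.05, the oocyte and larval regulator lin-41 by 2.16 and the period homolog lin-42 by 2.42. The molting gene mlt-10 had 67.7, 14.3 and 30.03 against 232, 191 and 173 (-2.63, SE 0.41, adjusted p = 0.00012), and the cell cycle inhibitor cki-1 had 45.2, 20.6 and 30.03 against 112, 91.2 and 99.7 (-1.70, SE 0.29). Sterile animals lay outside the fertile range in each. Whether stage differed between the groups apart from fertility was not tested.

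Large families divided by kind. Detoxification and secreted families were mostly higher, with 45 of 57 UDP-glucuronosyltransferases (median 1.15), 35 of 52 cytochrome P450s (1.17), 42 of 49 transthyretin-related genes (1.24), 60 of 85 C-type lectins (1.14) and 30 of 42 lysozymes and antimicrobial genes (0.98). The glucuronosyltransferase ugt-66 had 527, 927 and 543 in sterile against 50.4, 43.9 and 61.9 in fertile libraries (3.62, SE 0.26, adjusted p = 3.2e-06) and the lysozyme lys-2 had 2974, 2624 and 1952 against 687, 516 and 430 (2.21, SE 0.21), without overlap in either. Lectins held extremes of both signs, with clec-123 at 631, 579 and 691 against 43.6, 14.9 and 20.6 (4.67, SE 0.39) and clec-87 at 1190, 2503 and 2593 against 10641, 11022 and 11125 (-2.47, SE 0.23).

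F-box, MATH and BATH genes, adaptors that select proteins for degradation, were lower for 148 of 247 and higher for 49, with a median of -1.29. Among the lowest were fbxb-37, at 1.33, 9.52 and 0 against 88.1, 90.4 and 84.8 (-4.93, SE 0.64), and fbxb-103, at 2.66, 4.76 and 3.53 against 73.9, 85.1 and 118 (-4.32, SE 0.29). At the other end, fbxa-202 had 121, 129 and 132 in sterile libraries against 11.8, 0 and 0 in fertile and 0 in all control libraries (5.78, SE 0.87, chosen after its values were seen). The proteasome itself fell in 32 of 33 subunits, and 1 was higher (0.94). Its median was -0.73, with quartiles of -0.77 and -0.61.

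**Figure D5:**
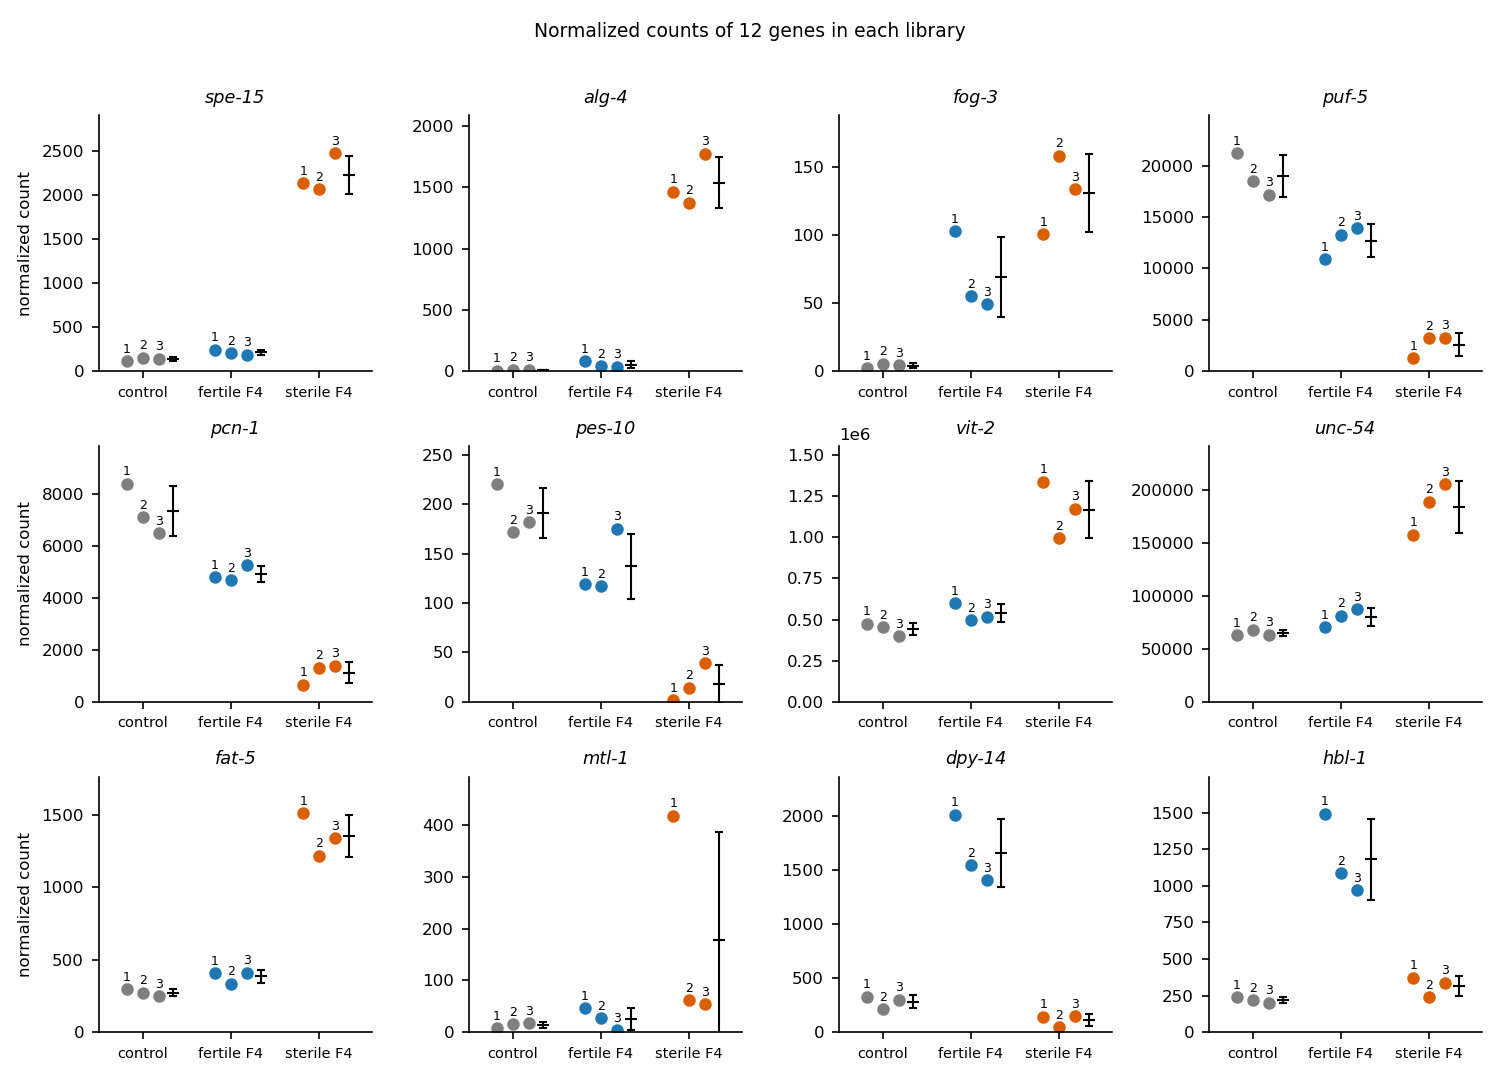
Normalized counts (linear axes from 0) of 12 genes in control (grey), fertile (blue) and sterile (orange) libraries, with the replicate number at each point and the mean with SD of 3 libraries in black (for mtl-1 and pes-10 the SD reaches below 0 and is cut there). The sterile and fertile groups are apart except in fog-3, where fertile replicate 1, at 103, lies above sterile replicate 1, at 101. The gene mtl-1 shows sterile replicate 1, at 417, far above the other libraries.

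Most cytosolic ribosomal protein genes were not called either way, 73 of 79, with a median of -0.03 whose sign turned in edgeR's and DESeq2's fits (0.02 in both). Within them, pairs of paralogs parted. The gene rpl-11.1 had 1638, 2682 and 2592 in sterile against 3375, 4886 and 4541 in fertile animals (-0.91, SE 0.19), and rpl-11.2 had 3094, 3665 and 3691 against 1547, 1673 and 1560 (1.1242, SE 0.11). Likewise, rpl-25.2 fell by 0.71 and rpl-25.1 rose by 1.26, and among subunits of respiratory complex III ucr-2.3 fell by 0.80 while ucr-2.1 and ucr-2.2 rose by 0.84 and 0.94 (rpl-25.2 and ucr-2.3 chosen after their values were seen). No pair member overlapped between the groups.

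Mitochondria showed a split of the same kind. Nuclear genes for the respiratory chain and ATP synthase were higher for 23 of 30 (median 0.39), whereas those for the mitochondrial ribosome were lower for 61 of 69 with none higher (-0.68). Chaperones of the HSP70, HSP90, J-domain and CCT families fell in 35 of 45 cases (-0.74) and autophagy genes in 19 of 28 (-0.68). The lowest of the latter was epg-2, an adaptor for P granule protein removal in embryos, with 271, 316 and 602 against 2624, 2927 and 3008 (-2.93, SE 0.23).

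Many of the genes with the largest differences carried little annotation. Among called genes with a mean of at least 50 over the 9 adult libraries and groups that did not overlap, the 10 highest were F32B4.2 (6.74), ZK265.3 (6.28), R148.7 (6.19), nep-8 (6.19), F42A9.7 (6.17), nspd-9 (6.16), C34B2.3 (6.09), C16C8.18 (6.04), mpst-4 (6.0) and B0379.7 (5.91). Their fertile means ran from 2.24 for F32B4.2 to 15.1 for ZK265.3, so these genes passed the limit of 50 through the sterile libraries alone. Each had a 0 in a fertile library, so the size of its difference depends on the 1 added before taking logs. For F32B4.2 the counts were 239, 182 and 213 in sterile and 6.71, 0 and 0 in fertile libraries. Without fertile replicate 1 the difference of F32B4.2 was 7.72. In all 10, fertile replicate 1 was the highest fertile library, the others being at 17.6 or below, and leaving it out raised their differences to between 6.83 for mpst-4 and 7.72. By the same limits the 10 lowest, besides ced-8, col-165, fbxb-37, fbxb-103 and sdz-21, were F15A4.10 (-4.86), F48E3.6 (-4.81), R04A9.7 (-4.77), F46E10.2 (-4.64) and R02C2.1 (-4.31). They had at most 20.3 normalized counts in any sterile library apart from col-165, and at least 32.1 in every fertile one.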

How the data were processed

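RNA was isolated from whole worms and libraries were prepared with the Ovation Universal kit and custom InDA-C primers for the species. The authors aligned reads with Subread to WS220, counted them per gene with featureCounts and deposited counts divided by DESeq2 size factors (versions are not given in the sources used here). These deposited values are a normalized signal, not raw counts, and 100.0% of them came out as whole reads within 0.1 after division by each library's step. Library size factors assume that most genes are equal between groups.

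Of 17723 rows, 3 with shifted cells and 4307 with a mean under 10 were left out. In R 4.3.3, log2(value + 1) was modelled with a moderated, trended limma 3.58.1 fit over all 9 adult libraries, with Benjamini-Hochberg adjustment over 13413 genes. A fold change on this scale understates the change of low genes. Gene members and lists were chosen with earlier results of these data known. Named genes were a set list, the 10 highest and 10 lowest, and up to 4 members per list with the smallest p. Genes named beyond these were chosen after their values were seen. They include inx-8, inx-9, inx-14, ceh-18, hrde-1, csr-1, sago-1, sago-2, perm-4, unc-119, lin-42, tbx-38 and the lower members of the sperm list.

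The study describes 3 independent biological replicates of 100 animals each for the adult libraries. Numbers pair the samples, but the main fit left this pairing out. Deviations from the group mean correlated at 0.384, 0.183 and 0.175 between fertile and sterile libraries of the same number. Between unlike numbers the correlations ran from -0.245 to 0.0986. Alternatives were edgeR 4.0.16 and DESeq2 1.42.0 on the recovered reads, other pseudocounts, filters and scalings, a replicate block and leaving out each library. Chromosomes were looked up by WormBase ID. No promoter motif was counted, and no sequence was used here.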

Additional observations from a re-analysis of the deposited data

How the results depend on the processing

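Gene calls kept their direction: under none of the 19 other settings did a gene called in both fits change sign. With 1 library left out, 4734 to 5190 genes were higher and 5069 to 5279 lower, and at least 2-fold 3404 to 3928 were higher and 2801 to 3610 lower. With the replicate number as a block, 5234 were higher and 5318 lower, and of the named genes only egl-1 and ser-7 (adjusted p = 0.057) lost their call. With edgeR 5321 and 5182 genes passed, with DESeq2 5235 and 5125. At least 2-fold higher were 2283 genes at a minimum mean of 50, where fewer genes were tested, and 2233 with libraries scaled to their sums. Leaving rrn-3.1 out of these sums gave 4372 higher and 5789 lower genes, and leaving out both replicates 1 gave 5081 and 5206 (both alternatives were chosen after seeing the data). Of 337 named genes 315 kept their direction and side of the threshold in each of the 19 settings that gave them a value (not all had one at a minimum mean of 50), 17 lost their call in at least 1 of them, and 3 changed sign without a call in the limma fit. For daf-16 the values beside those in the report were 0.08 without both replicates 1 and -0.13 to 0.04 with 1 library left out, for elt-2 they were -0.06 without both replicates 1, -0.06 to 0.28 with 1 library left out and -0.10 with sums without rrn-3.1, and for snb-1 they were -0.03 with median centring, -0.30 with library sums, -0.20 with sums without rrn-3.1 and -0.01 to 0.04 with 1 library left out. Of 62 list medians, 22 stayed the same in all 19 settings and 3 changed sign. With libraries scaled to their sums 34 medians moved without a change of sign, and with sums without rrn-3.1 it was 18. Body shape and blister collagens turned to 0.02 without a filter. Cytosolic ribosomal proteins turned to 0.02 in edgeR, DESeq2, without both replicates 1 and without fertile replicate 2, and to 0.07 without sterile replicate 1. Hypodermis markers (0.01) turned to -0.02 in edgeR and DESeq2, -0.03 with median centring, -0.12 with a pseudocount of 10, -0.29 with library sums, -0.19 with sums without rrn-3.1, and lay from -0.14 to 0.05 with 1 library left out, below 0 without any of the fertile replicates or sterile replicate 3. The cause was not tested. With 3 libraries a group, an exact two-sided permutation test of a single gene cannot go below p = 0.10. Genes under a mean of 10 were not compared, and a 0 in a library allows up to 3 reads.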

Other observations

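Further gene groups were examined, with the same fit and thresholds. Genes of the dauer and body size TGF-beta pathways and of steroid signaling were higher for 12 of 18 and lower for 3 (median log2 difference 0.72). Among them, the nuclear receptor daf-12 had 675, 510 and 550 normalized counts in sterile and 295, 263 and 205 in fertile animals (1.19, SE 0.17), and sma-10, a membrane protein that promotes BMP signaling, had 975, 1230 and 1238 against 432, 419 and 543 (1.303, SE 0.17). The groups did not overlap in either gene. Nuclear hormone receptors were higher for 91 of 164 and lower for 14 (median 0.75), with nhr-76 at 924, 814 and 713 against 212, 153 and 147 (2.27, SE 0.17) and nhr-2, a receptor of the early embryo, at 33.2, 82.5 and 91.8 against 499, 466 and 361 (-2.77, SE 0.31). Hedgehog-related and patched-related genes were higher for 23 and lower for 11 of 45, and wrt-10 had means of 25.85 ± 10.1 normalized counts in sterile and 206.9 ± 56.9 in fertile animals (SD, n = 3, log2 difference -2.99, SE 0.30).

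Astacin proteases were higher for 11 of 15 with none lower (median 1.06), and glutathione transferases were higher for 21 and lower for 3 of 34 (median 1.1), with gst-4 at 693, 1119 and 1005 against 248, 381 and 238 (1.70, SE 0.23). Histone methylation genes of germ line inheritance were lower in all 14 cases (-1.38), for example the demethylase utx-1 with 157, 201.6 and 254 against 770, 856 and 911 (-2.07, SE 0.17). Small heat shock genes were higher for 4 and lower for 1 of 10, and superoxide dismutases, catalases and peroxiredoxins for 5 and 2 of 10, next to 38.8% higher and 39.6% lower among all genes. Lipid-binding proteins were higher for 6 and lower for 3 of 9, and serotonin genes for 3 and 1 of 9. AMPK and TOR genes were higher for 6 and lower for 11 of 19, cuticlins for 5 and 8 of 21, and hypodermis markers for 3 and 5 of 10. The 4 tested of 8 listed genes repressed downstream of DAF-16 were higher in 3 cases and lower in none. Shorter lists that the study had drawn from its larval libraries were higher for 32 and lower for 2 of 43 DAF-16 dependent genes, and higher for 14 and lower for 8 of 27 independent ones.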
